A study of Mus musculus with 10 samples.

Results

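Mpo, Elane, Prtn3, Ctsg and Ms4a3 are genes of the immature neutrophil, and they were followed here through 5 groups of mouse libraries labelled as B cells. They were taken by symbol from the deposited table of read counts, where all 5 were found among 46959 gene entries. Mpo encodes myeloperoxidase, which makes hypochlorous acid from hydrogen peroxide and chloride. Elane, Prtn3 and Ctsg encode the serine proteases neutrophil elastase, proteinase 3 and cathepsin G. Ms4a3 encodes a membrane-spanning protein of granulocyte and monocyte precursors, and it is a marker of that stage rather than a granule content.

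Primary, or azurophil, granules are the first granules that a developing neutrophil makes. Their proteins are transcribed in promyelocytes in the bone marrow, and transcription stops as the cell matures, while the stored proteins stay in the granules of the circulating neutrophil. Genes of the secondary granules, such as Ltf (lactoferrin), are switched on later, at the myelocyte stage. B cells are not known to make these proteins.

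The series asks how SAHA and how deletion of enhancers of the immunoglobulin heavy chain locus act on transcription of that locus in B cells. Total RNA was sequenced from 10 libraries, 2 per group. The femoral groups, 2KO, deltaEmu and RAG2_deficient, are labelled femoral B cells from C57BL6 mice of 8 to 10 weeks, lysed without culture. The design text speaks of mice deficient for 5′Eµ and 3′RR, which are the Eµ enhancer and the regulatory region downstream of the heavy chain locus, without spelling out 2KO. deltaEmu carries the Eµ deletion, and RAG2_deficient lacks a recombinase subunit without which lymphocytes cannot assemble antigen receptors. No wild-type femoral group and no description of how the femoral B cells were purified was used here. The spleen groups, LPS_IL4 and LPS_IL4_SAHA, are CD43- spleen cells of mice named wt, strain 129, of the same age. Culture lasted 48 h in 5 µg/ml lipopolysaccharide (LPS), with interleukin 4 (IL4, 20 ng/ml) added according to the growth protocol and the sample names. The growth protocol names KOKI and BLACK-6 mice instead as their source. SAHA, a histone deacetylase inhibitor, is given as 200 nM in names and as 200 ng/ml in the protocol. The design text describes RNA pools, so the p-values measure only the spread between these pools.

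The count columns carry numbers only, and were assigned by the sequencing index that ends each description. By the numbers that open the titles, 8 of the 10 columns would belong to other samples and the femoral groups would be columns 1 to 6. The titles also put SAHA on the opposite spleen samples. By the index, the 5 genes together had 2 to 7 counts in each spleen library and 30843 to 96690 in each femoral library. If the title numbering were the right one, none of the group comparisons here would hold. Library totals ran from 17710154 to 25544275 counts. In the femoral libraries the summed level of 10 mature B cell markers was 339 to 713 CPM (counts scaled by the TMM-adjusted library size, per 1e+06), against 3626 to 4881 CPM in the spleen libraries. The 5 genes summed to 1591 to 4896 CPM in the femoral libraries and held 0.172% to 0.493% of all counts there. In bulk RNA, fewer cells of a type and less RNA per cell cannot be told apart.

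Elane and Prtn3 lie side by side on chromosome 10 of GRCm38 (mm10), on the same strand, and Elane starts 3138 bases after the last base of Prtn3 in the deposited annotation (Prtn3 at chr10:79874476-79883174 and Elane at chr10:79886312-79888216). Mpo is at chr11:87793581-87804413 on the plus strand, Ctsg at chr14:56099881-56102574 on the minus strand and Ms4a3 at chr19:11629496-11640851 on the minus strand. All 5 genes were found in the RefSeq promoter table (GRCm38.p6). Levels of all 5 genes moved together across the femoral libraries, and the neighbouring pair did not stand out. Pearson's r on log2 CPM was 0.961 for Elane and Prtn3. Over all pairs it ran from 0.945 (Mpo and Ctsg) to 0.993 (Prtn3 and Ms4a3). The promoters of the neighbouring pair are shown because the genes lie side by side and the sequences share 3 motifs in the same order. Each run is the 120 bases directly before the RefSeq start, on the plus strand (Elane chr10:79886192-79886311, Prtn3 chr10:79879547-79879666), with the motifs in capitals.
Elane: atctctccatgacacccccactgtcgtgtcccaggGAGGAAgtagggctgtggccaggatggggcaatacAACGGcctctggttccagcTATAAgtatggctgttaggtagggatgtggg
Prtn3: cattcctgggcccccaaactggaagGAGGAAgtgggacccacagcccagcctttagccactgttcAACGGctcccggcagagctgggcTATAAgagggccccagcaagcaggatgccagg
GAGGAA, a core of sites for PU.1 and other ETS factors, lay from -85 to -80 in Elane and from -95 to -90 in Prtn3, where -1 is the base directly before the start. AACGG, a core of MYB sites, lay from -50 to -46 in Elane and from -55 to -51 in Prtn3. TATAA, the TATA box core, lay from -31 to -27 and from -32 to -28. Searched on both strands in the 250 bases before each start, GAGGAA was in 4 of the 5 promoters (all but Ms4a3) and in 23.3% of 32851 promoters. AACGG was in the promoters of the neighbouring pair only and in 14.5% of all. TATAA on the sense strand was likewise in that pair only, and in 16% of all. TGTGGT, a core of RUNX sites, was in Ctsg alone of the 5 (14% of all), and TTGCNNCAA, a pattern of C/EBP sites, in Ms4a3 alone (1.74% of all). The motifs were chosen after the sequences had been seen, and a match is a string of letters, not a shown binding site. The deposited Prtn3 entry begins upstream of its RefSeq start.

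In the femoral libraries, Mpo, Elane, Prtn3, Ctsg and Ms4a3 were each highest in deltaEmu, lower in 2KO and lowest in RAG2_deficient by group mean, and in the spleen libraries all 5 were at or close to 0. Mpo reached 1945 and 1716 CPM in 2KO, 3127 and 2956 CPM in deltaEmu, and 1458 and 1021 CPM in RAG2_deficient. The 3 groups did not overlap, and the deltaEmu libraries stood above the other 4. Over all tested genes, both deltaEmu libraries were above both 2KO libraries in 29.5% and above both RAG2_deficient libraries in 25.8%. The share of genes with both arrangements was not counted, here or for the genes that follow. The group means were 1831 ± 162 CPM, 3041 ± 121 CPM and 1240 ± 309 CPM (SD, n = 2), in the same order.

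Elane was at 265 and 223 CPM in 2KO, 417 and 456 CPM in deltaEmu, and 229 and 156 CPM in RAG2_deficient. Prtn3 was at 468 and 343.5 CPM in 2KO, 658 and 791 CPM in deltaEmu, and 369.5 and 149 CPM in RAG2_deficient. Ctsg was at 324 and 260 CPM in 2KO, 480 and 504 CPM in deltaEmu, and 319 and 210 CPM in RAG2_deficient. For all 3 proteases the deltaEmu libraries lay above every other femoral library, while the higher RAG2_deficient library fell between the 2KO libraries. How many of all tested genes shared that arrangement was not counted. Group means for Elane were 244 ± 30.2, 436 ± 27.8 and 193 ± 51.4 CPM in 2KO, deltaEmu and RAG2_deficient. For Prtn3 they were 406 ± 88.3, 725 ± 93.8 and 259 ± 156 CPM, the widest relative spread of the 5 genes in RAG2_deficient. For Ctsg they were 292 ± 45.3, 492 ± 16.8 and 265 ± 77.5 CPM (SD, n = 2 throughout).

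Ms4a3, the precursor marker, was at 126 and 90.5 CPM in 2KO, 152 and 190 CPM in deltaEmu, and 99.2 and 54.9 CPM in RAG2_deficient. Its means were 108 ± 24.8, 171 ± 26.6 and 77 ± 31.3 CPM (SD, n = 2). It followed the same pattern as the proteases, with deltaEmu above the other libraries and with 2KO and RAG2_deficient overlapping.

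**Figure D1:**
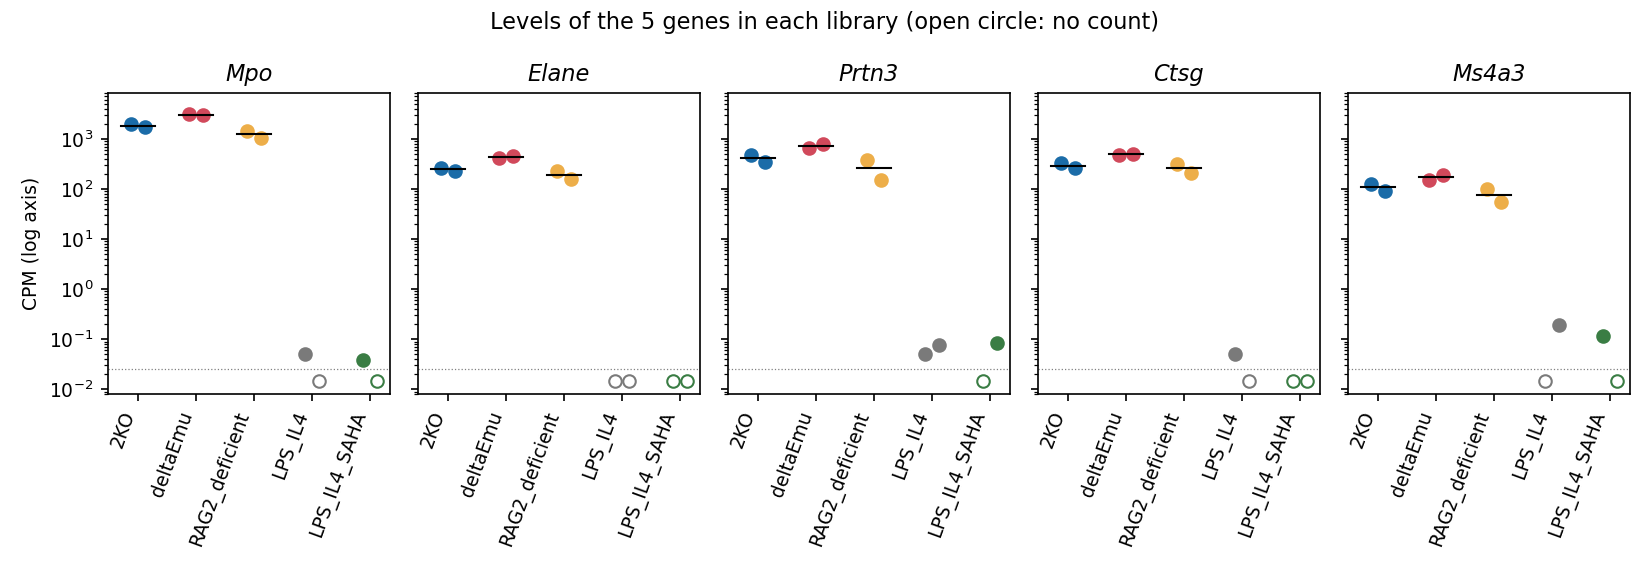
Level of each gene (CPM, log axis) in the 10 libraries, with 1 point per library, grouped by label. A black line gives the mean of each femoral group, and open circles under the dotted line mark libraries with no count; the femoral points lie between 54.9 CPM (Ms4a3) and 3127 CPM (Mpo), and every spleen point lies under 0.2 CPM.

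Per kilobase of exon the order of the genes was the same in all 6 femoral libraries: Mpo, then Ctsg, Elane, Prtn3 and Ms4a3 (RPKM, CPM divided by the deposited exon length). In 2KO replicate 1, for example, the levels were 568, 323, 288, 270 and 66.7 RPKM in that order. Mpo exceeded Elane by 1.71 to 2.07 times and Ms4a3 by 8.09 to 11.3 times. Neighbours in that order were close in some libraries: in deltaEmu replicate 7 Ctsg was at 503 RPKM and Elane at 495.5 RPKM. By group mean the gap between them was within the spread of the libraries in all 3 groups. Both genes are measured in the same libraries, however, and Ctsg was above Elane in each of the 6. The exon lengths used were 3424 bases for Mpo, 1002 for Ctsg, 920 for Elane, 1732 for Prtn3 and 1884 for Ms4a3, and lengths counted over all listed isoforms lower the RPKM of a gene that uses a shorter one.

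Against deltaEmu, 2KO showed lower values of all 5 genes, but none of the 5 passed the threshold (edgeR quasi-likelihood F test, adjusted p under 0.05 over 16538 genes, at which 3.7% of genes were called). Both 2KO libraries were below both deltaEmu libraries for 5 of 5 genes, an arrangement that 29.5% of all tested genes had in that direction. The log2 fold change of Mpo was -0.73 ± 0.31 (SE), with an adjusted p of 0.305. Elane came nearest to the threshold, at -0.84 ± 0.24 and an adjusted p of 0.127, and Prtn3 had the same difference with a larger error (-0.84 ± 0.41, adjusted p 0.384). Ctsg (-0.75 ± 0.26) and Ms4a3 (-0.66 ± 0.30) had adjusted p of 0.201 and 0.345. At an unadjusted p under 0.05 there were 3 of the 5, beside 15.7% of all tested genes, and DESeq2 called 2, Mpo and Elane, beside 5.74% of all. The median over the 5 genes was -0.75, against -0.01 over all tested genes. The call depended on the other libraries in the fit. With the RAG2_deficient libraries left out, Elane, Prtn3 and Ctsg had adjusted p of 0.016, 0.0411 and 0.0282, and without RAG2_deficient replicate 1 alone 0.014, 0.0372 and 0.026 (without replicate 2, 0.0147, 0.0386 and 0.0272). In those 3 fits 9.81%, 9% and 9.21% of all tested genes were called, in the same order.

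In deltaEmu against RAG2_deficient, all 5 genes had higher values in deltaEmu, and Mpo and Elane were called. Mpo was 2.45-fold higher in deltaEmu (log2 1.29 ± 0.31 SE, adjusted p 0.0398) and Elane 2.26-fold higher (1.18 ± 0.24, adjusted p 0.0231), each in 2 of 2 deltaEmu libraries. These 2 of 5 calls stand beside 9.81% of all tested genes. The other 3 had values on the same side of 0 without reaching the threshold: Prtn3 at 1.48 ± 0.41 (adjusted p 0.0641), Ms4a3 at 1.15 ± 0.30 (0.0547) and Ctsg at 0.90 ± 0.26 (0.0716). For all 5 genes both deltaEmu libraries were above both RAG2_deficient libraries, which was so for 25.8% of tested genes. The median log2 fold change of the 5 was 1.18, against -0.01 over all genes.

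Those calls moved with single libraries. Neither Mpo nor Elane kept its call with only 1 deltaEmu library in the fit. The log2 fold changes were then 1.26 and 1.25 without deltaEmu replicate 5, and 1.34 and 1.12 without deltaEmu replicate 7. Mpo also lost its call without 2KO replicate 1 or replicate 3 (log2 1.30 each), although those libraries are in neither group compared. Leaving them out changes the shared estimate of the spread, and also the filter, the scaling and the number of genes tested. With the 2KO libraries left out both genes missed the threshold (adjusted p 0.117 and 0.0504, in a fit that called 7.94% of genes). In the other direction, without RAG2_deficient replicate 1 all 5 genes were called, with Prtn3 at 2.29 (adjusted p 0.00156), Ctsg at 1.24 (0.00524) and Ms4a3 at 1.65 (0.0037), and the share of all tested genes called went from 9.81% to 30.9%. Without RAG2_deficient replicate 2, 2 of the 5 were called, beside 8.83% of all tested genes. Without deltaEmu replicate 5 the share of all genes called was 1.49% and without deltaEmu replicate 7 it was 1.84%. DESeq2 called all 5 too, beside 12.5% of all genes, at adjusted p of 0.00156 for Prtn3, 0.00654 for Ctsg and 0.00433 for Ms4a3.

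Between 2KO and RAG2_deficient the 5 genes were closest. None was called by edgeR or by DESeq2, and none had an unadjusted p under 0.05. Of all tested genes edgeR called 4.31% and DESeq2 7.51%, and 19.2% had an unadjusted p under 0.05. Mpo was at 0.56 ± 0.31 on the log2 scale (SE, adjusted p 0.381) and was the only one of the 5 with both 2KO libraries above both RAG2_deficient libraries, as 23.4% of all tested genes were. Elane (0.34 ± 0.24), Prtn3 (0.65 ± 0.41), Ctsg (0.14 ± 0.26) and Ms4a3 (0.49 ± 0.30) overlapped between the groups, with adjusted p from 0.443 to 0.83. The median of the 5 was 0.49. The values moved with either RAG2_deficient library. Without replicate 1, Mpo, Elane, Prtn3 and Ms4a3 were called (0.85, 0.65, 1.46 and 0.99, adjusted p 0.0497, 0.048, 0.012 and 0.0289), in a fit that called 18.4% of all tested genes. Without replicate 2 none was called, beside 4.33% of all tested genes, with Mpo at 0.33, Elane at 0.090, Prtn3 at 0.13, Ms4a3 at 0.12 and Ctsg at -0.13. Ctsg was also at -0.01 without 2KO replicate 1. The 3 femoral comparisons share libraries, so they are not independent of each other.

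**Figure D2:**
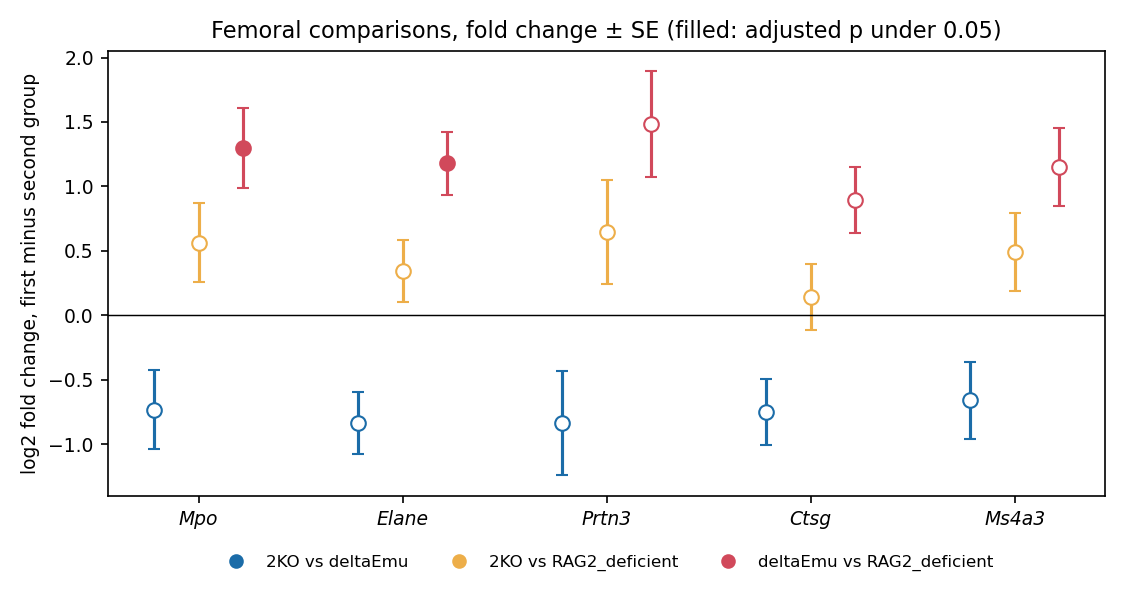
Log2 fold change of each gene in the 3 femoral comparisons, first group minus second, with SE as error bars and colour for the comparison. Filled points passed an adjusted p of 0.05: only Mpo (1.29) and Elane (1.18) in deltaEmu against RAG2_deficient are filled.

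Within RAG2_deficient, the 5 genes were higher in replicate 1, while 6 of 7 secondary granule genes were higher in replicate 2. Replicate 1 had 1.43 times the Mpo level of replicate 2, and 1.47 times the Elane, 2.48 times the Prtn3, 1.52 times the Ctsg and 1.81 times the Ms4a3 level. The same ratio was 0.427 for Ltf, 0.777 for Camp (cathelicidin), 0.646 for Ngp (neutrophilic granule protein), 0.415 for Lcn2 (lipocalin 2), 0.479 for Cd177 and 0.379 for Mmp8, a collagenase. Chil3, the seventh of that list, had about the same level in both libraries (ratio 0.999), and Cebpe, the transcription factor needed for secondary granules, was higher in replicate 1 (1.96). In 2KO the 5 genes' ratios of replicate 1 to replicate 3 were 1.13 to 1.39 and those of the 7 secondary granule genes 0.894 to 1.23. In deltaEmu the ratios of replicate 5 to replicate 7 were 0.801 to 1.06 and 0.873 to 1.41. These are ratios of single libraries, with no test.

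The ratio of the 5 genes' summed CPM to that of the 7 secondary granule genes was 1.19 in RAG2_deficient replicate 1 and 0.523 in replicate 2, the highest and the lowest of the 6 libraries. It was 0.993 and 0.844 in 2KO and 0.733 and 0.842 in deltaEmu. Against 8 late neutrophil genes the ratio was 0.571 and 0.300 in RAG2_deficient, again the extremes, with 0.447 and 0.498 in 2KO and 0.459 and 0.340 in deltaEmu. Against 8 monocyte genes the groups did not overlap: the ratio was 1.13 and 1.28 in deltaEmu, 1.00 and 0.917 in 2KO, and 0.852 and 0.810 in RAG2_deficient. Differences in these ratios between groups were not tested.

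**Figure D3:**
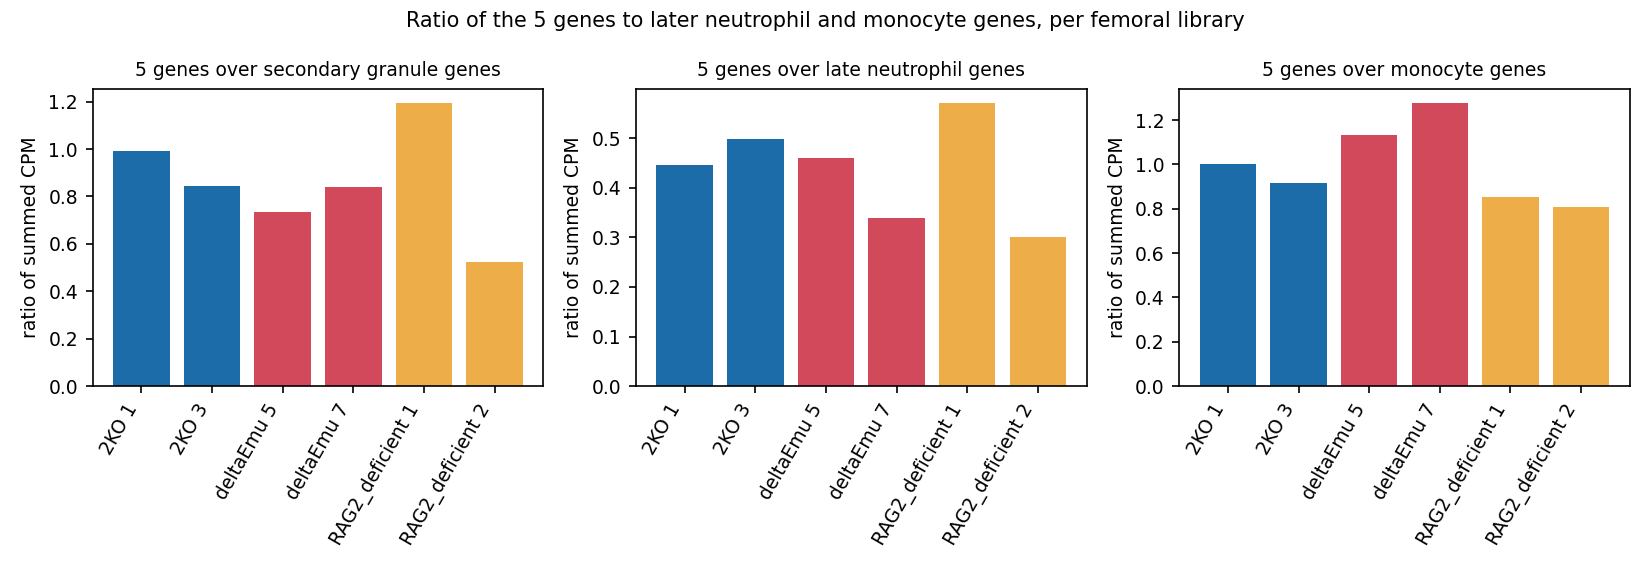
Summed CPM of the 5 genes divided by that of the secondary granule genes (left), the late neutrophil genes (middle) and the monocyte genes (right), 1 bar per femoral library. The RAG2_deficient libraries hold both the highest (1.19 and 0.571) and the lowest (0.523 and 0.300) ratios in the left and middle panels, and in the right panel the deltaEmu bars (1.13 and 1.28) are highest and the RAG2_deficient bars (0.852 and 0.810) lowest.

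In the spleen groups the 5 genes were at the edge of detection. Elane had 0 counts in all 4 libraries. Mpo had 1 count in LPS_IL4 replicate 4, 1 in LPS_IL4_SAHA replicate 4 and 0 in the other two libraries, and Ctsg had 1 count in LPS_IL4 replicate 4 alone. Prtn3 had 1 and 2 counts in LPS_IL4 and 0 and 2 in LPS_IL4_SAHA (replicates 4 and 6), and Ms4a3 had 0 and 5 in LPS_IL4 and 3 and 0 in LPS_IL4_SAHA. A count of 0 allows up to 3 counts, which is 0.121 to 0.161 CPM in these libraries when scaled in the fit of all 10 libraries. None of the 5 passed the filter on low counts, so an effect of SAHA on them was not detectable at this depth. In that comparison edgeR called 0% of 13913 tested genes (0 genes, with 187 at an unadjusted p under 0.05), and DESeq2 called 0. Without LPS_IL4 replicate 4, however, edgeR called 2670, and without LPS_IL4 replicate 6 it called 5.

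Across all 10 libraries, 5 of 5 genes were called higher in the femoral groups than in the spleen groups, with adjusted p of 8.11e-09 for Mpo to 8.1e-08 for Ms4a3 (edgeR, where 71.4% of 17483 tested genes were called). Strain, tissue, purification and culture differ between these groups and cannot be told apart. The means and ratios that follow use the scaling of the fit of all 10 libraries. The library levels and group means above use that of the separate femoral and spleen fits. The mean over the 6 femoral libraries was 1969 CPM for Mpo, 448 for Prtn3, 337 for Ctsg, 281 for Elane and 115 for Ms4a3. From summed counts, the femoral level of Ms4a3 was 1264 times that of the spleen libraries (95% counting interval 641 to 2929, on 8 spleen counts), and that of Prtn3 was 7889 times (3380 to 24299, on 5). Mpo rested on 2 spleen counts (ratio 87637, interval 24260 to 723653) and Ctsg on 1 (ratio 29807, interval 5349 to 1177320). Elane was at least 2071.5-fold higher, with 3 counts in each spleen library as the floor. Single spleen libraries moved these ratios. Of the 8 Ms4a3 counts 5 were in LPS_IL4 replicate 6, without which the ratio was 2435 (833 to 11809, on 3 counts), and without each other spleen library it was 951 to 1483. For Prtn3 the ratio was 5782 to 9892 with each spleen library left out. For Mpo it was 63294 to 138925, the highest without LPS_IL4 replicate 4 and on 1 count, and for Ctsg no spleen count remained without that library. The intervals cover counting error only.

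The other primary granule genes were measured as 8 genes, of which 7 passed the filter (Bpi, at 0 to 0.119 CPM in the femoral libraries, did not). In the 3 femoral comparisons edgeR called 0 of the 7 (of all tested genes, 3.7% in 2KO against deltaEmu, 4.31% in 2KO against RAG2_deficient and 9.81% in deltaEmu against RAG2_deficient). In deltaEmu against RAG2_deficient 4 had an unadjusted p under 0.05 and DESeq2 called 3, in 2KO against deltaEmu 2 and 1, and in 2KO against RAG2_deficient 0 and 0. Over all tested genes those shares were 25.6% and 12.5%, 15.7% and 5.74%, and 19.2% and 7.51%. Without RAG2_deficient replicate 1, edgeR called 7 of 7 in deltaEmu against RAG2_deficient, 1 of 7 in 2KO against deltaEmu and 3 of 7 in 2KO against RAG2_deficient, beside 30.9%, 9% and 18.4% of all tested genes. The same shares are the background of the gene lists that follow. Prss57, which encodes another neutrophil serine protease and lies within 100 kb of Elane, was at 1.11 ± 0.33 in deltaEmu against RAG2_deficient (log2, SE, adjusted p 0.0805). Man2b1, a lysosomal mannosidase found in many cell types, was at 0.80 ± 0.25 (adjusted p 0.089). The list's median in that comparison was 0.48, in 2KO against deltaEmu -0.38 and in 2KO against RAG2_deficient 0.23.

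Of 6 genes that package, activate or restrain the granule proteases, 1 was higher and 1 lower in deltaEmu than in RAG2_deficient (9.81% of all genes were called), and edgeR called none in either comparison with 2KO. At an unadjusted p under 0.05 there were 3 against deltaEmu and 2 against RAG2_deficient (15.7% and 19.2% of all tested genes). DESeq2 called 2 and 0 (5.74% and 7.51% of all). Serpinb1a, an inhibitor of elastase, proteinase 3 and cathepsin G, had 97.4 and 82.9 CPM in 2KO, 147 and 131 CPM in deltaEmu and 73.3 and 63.1 CPM in RAG2_deficient. It rose by 1.03 ± 0.18 on the log2 scale in deltaEmu against RAG2_deficient (SE, adjusted p 0.0122). Serpinb6a, an inhibitor of cathepsin G, fell by 0.88 ± 0.18 (adjusted p 0.0242), from 32.4 and 27.1 CPM in RAG2_deficient to 16.5 and 15.7 CPM in deltaEmu. The 2 serpins thus moved in opposite directions. Srgn, the proteoglycan core that holds the proteases in the granule, was at 0.82 ± 0.23 (adjusted p 0.0664). Ctsc, the peptidase that activates the proteases, was at 0.81 ± 0.24 (adjusted p 0.0725), with the Ctsc inhibitor Cst7 at 1.02 ± 0.28 (0.0631). DESeq2, and edgeR without RAG2_deficient replicate 1, called 6 of 6 in this comparison (12.5% and 30.9% of all tested genes), and edgeR without deltaEmu replicate 5 or 7 called 0.

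Among 10 regulators of granulocyte development, Cebpa and Csf3r were called higher in deltaEmu than in RAG2_deficient, beside 9.81% of all genes, and edgeR called 0 in the other femoral comparisons. There, 2 (2KO against deltaEmu) and 3 (2KO against RAG2_deficient) had an unadjusted p under 0.05, beside 15.7% and 19.2% of all tested genes. DESeq2 called 2 and 0, beside 5.74% and 7.51% of all. Cebpa, the transcription factor that starts the granulocyte program, had 77.7 and 64.1 CPM in deltaEmu and 37.9 and 26.5 CPM in RAG2_deficient (log2 1.14 ± 0.22 SE, adjusted p 0.0189). Csf3r, the receptor for granulocyte colony-stimulating factor, had 193 and 163 CPM in deltaEmu and 61.5 and 82.7 CPM in RAG2_deficient (1.31 ± 0.20, adjusted p 0.00798). The factors whose motif cores were searched had values of 0.72 (Spi1, encoding PU.1, adjusted p 0.106), -0.49 (Runx1, 0.245) and -0.41 (Myb, 0.276). Cebpe was at 1.19 ± 0.34 (adjusted p 0.0694). Without RAG2_deficient replicate 1, edgeR called 8 of the 10 in this comparison (30.9% of all tested genes), and without deltaEmu replicate 5 or 7 it called 0.

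Later granulocyte genes and monocyte genes had called members in the same comparison, in which 9.81% of all tested genes were called. Of 7 secondary granule genes 4 were higher in deltaEmu than in RAG2_deficient and 0 lower, with a median of 1.48, Camp at 1.65 ± 0.23 (adjusted p 0.00542), Cd177 at 1.54 ± 0.34 (0.0294) and Ngp at 1.29 ± 0.29 (0.0328). Of 8 late neutrophil genes 5 were higher, with a median of 1.56, among them Stfa2l1 (2.13 ± 0.28, adjusted p 0.00417), Clec4d (1.77 ± 0.26, 0.00695) and Il1b (2.39 ± 0.39, 0.00976). Of 8 monocyte genes 4 were higher, with a median of 0.77, among them Klf4 (1.77 ± 0.26, adjusted p 0.00661), Cd14 (2.95 ± 0.47, 0.00905) and Ccr2 (1.10 ± 0.27, 0.0451). In 2KO against deltaEmu, where 3.7% of all genes were called, 2 of the 8 late neutrophil genes were lower in 2KO, Stfa2l1 (-1.98, adjusted p 0.00793) and Clec4d (-1.20, adjusted p 0.0464). DESeq2 called 7 of the 8 there, and edgeR 7 without RAG2_deficient replicate 1 and 0 without deltaEmu replicate 5 or 7 (0.848% and 0.682% of all tested genes). Cd14 was called in 2KO against RAG2_deficient too (2.06, adjusted p 0.0493). In 2KO against deltaEmu edgeR called 0 secondary granule genes (median -0.98) and 0 monocyte genes (median -0.52). At an unadjusted p under 0.05 there were 5 and 4 (15.7% of all tested genes), and DESeq2 called 4 and 2 (5.74% of all). In 2KO against RAG2_deficient edgeR called 0 secondary granule and 0 late neutrophil genes (4.31% of all). There, 1 of each list had an unadjusted p under 0.05 (19.2%), and DESeq2 called 1 and 0 (7.51%). None of 6 progenitor genes was called in a femoral comparison by edgeR, and Gata2 (0.52 ± 0.17 in 2KO against RAG2_deficient, adjusted p 0.14) and Cd34 (0.37 ± 0.17 in deltaEmu against RAG2_deficient, 0.218) came nearest. At an unadjusted p under 0.05 there were 3 progenitor genes in 2KO against deltaEmu, 1 in 2KO against RAG2_deficient and 0 in deltaEmu against RAG2_deficient. Of all tested genes the shares were 15.7%, 19.2% and 25.6%. DESeq2 called 0 progenitor genes in each (5.74%, 7.51% and 12.5% of all tested genes). The summed level of the progenitor genes was highest in deltaEmu too, at 356 and 324 CPM. It was 315 and 287 CPM in 2KO and 297 and 304 CPM in RAG2_deficient. With 1 deltaEmu library left out, the calls in deltaEmu against RAG2_deficient went to 0 for the secondary granule list, 1 for the late neutrophil list and 0 (without replicate 5) or 1 (without replicate 7) for the monocyte list. With library totals alone in place of TMM, 1 secondary granule gene was called, beside 9.6% of all genes. Without RAG2_deficient replicate 1 more members of each of these lists were called in deltaEmu against RAG2_deficient. That fit also called more of all tested genes. Without RAG2_deficient replicate 2, more secondary granule and late neutrophil genes but fewer monocyte genes were called, in a fit that called fewer of all tested genes. Whether Mpo, Elane, Prtn3, Ctsg and Ms4a3 moved more or less than these lists was not tested.

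Markers of other cells moved between the same groups. Of all tested genes 3.7% were called in 2KO against deltaEmu, 4.31% in 2KO against RAG2_deficient and 9.81% in deltaEmu against RAG2_deficient. The summed level of 8 stromal genes was 7882 to 9054 CPM in RAG2_deficient, 2448 to 2634 CPM in deltaEmu and 1274 to 1811 CPM in 2KO, and 8 of 8 were lower in deltaEmu than in RAG2_deficient. That of 10 early B cell (pro-B) genes was 2958 to 3396 CPM in RAG2_deficient, 819 to 1243 CPM in deltaEmu and 728 to 1183 CPM in 2KO, with 5 of 10 called lower in deltaEmu. That of 9 red cell genes was 10842 to 15927 CPM in 2KO, 2493 to 2704 CPM in deltaEmu and 3300 to 5991 CPM in RAG2_deficient, and 9 of 9 were higher in 2KO than in deltaEmu. That of 8 eosinophil, basophil and mast cell genes was 1690 to 5868 CPM over the 6 libraries and did not separate the groups, and 1 of 8, the basophil and mast cell receptor gene Fcer1a, was called (1.42 ± 0.23 higher in 2KO than in RAG2_deficient, adjusted p 0.0201). The summed level of the 10 mature B cell genes was 679 and 713 CPM in deltaEmu, 440.5 and 339 CPM in 2KO and 517 and 417 CPM in RAG2_deficient, so that deltaEmu was highest, as for the 5 genes. Called were 7 of 10, all higher, in deltaEmu against RAG2_deficient and 5 of 10, all lower, in 2KO against deltaEmu. Ms4a1, which encodes CD20, was at 20.4 ± 4.87 CPM in deltaEmu, 0.286 ± 0.0149 CPM in 2KO and 0.766 ± 0.50 CPM in RAG2_deficient (SD, n = 2). In 2KO against RAG2_deficient Cd74 was higher (1.21) and Cd79b lower (-1.24). The sum of 7 T and NK cell genes was 51.4 to 78.3 CPM over the 6 libraries. It was highest in deltaEmu (78.3 and 76.5 CPM), closely followed by RAG2_deficient replicate 2 (75.4 CPM). In deltaEmu against RAG2_deficient 3 of the 7 were higher, among them Cd3g (3.73, adjusted p 0.00624), and 1 lower, Klrb1c, an NK cell receptor gene (-2.22, adjusted p 0.00164). In 2KO against RAG2_deficient 1 was higher, Cd3e, which had no count in either RAG2_deficient library, and 1 lower, Klrb1c (-2.03). No red cell, stromal or pro-B marker was at 0 in a femoral group. Without deltaEmu replicate 5 or 7 the red cell genes lost all their calls in 2KO against deltaEmu, where fewer of all tested genes were called too. The same step left fewer stromal, pro-B, mature B cell and T and NK cell genes called in deltaEmu against RAG2_deficient. Fewer of all tested genes were called there as well. The part of these cell types in the values of Mpo, Elane, Prtn3, Ctsg and Ms4a3 was not tested.

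**Figure D4:**
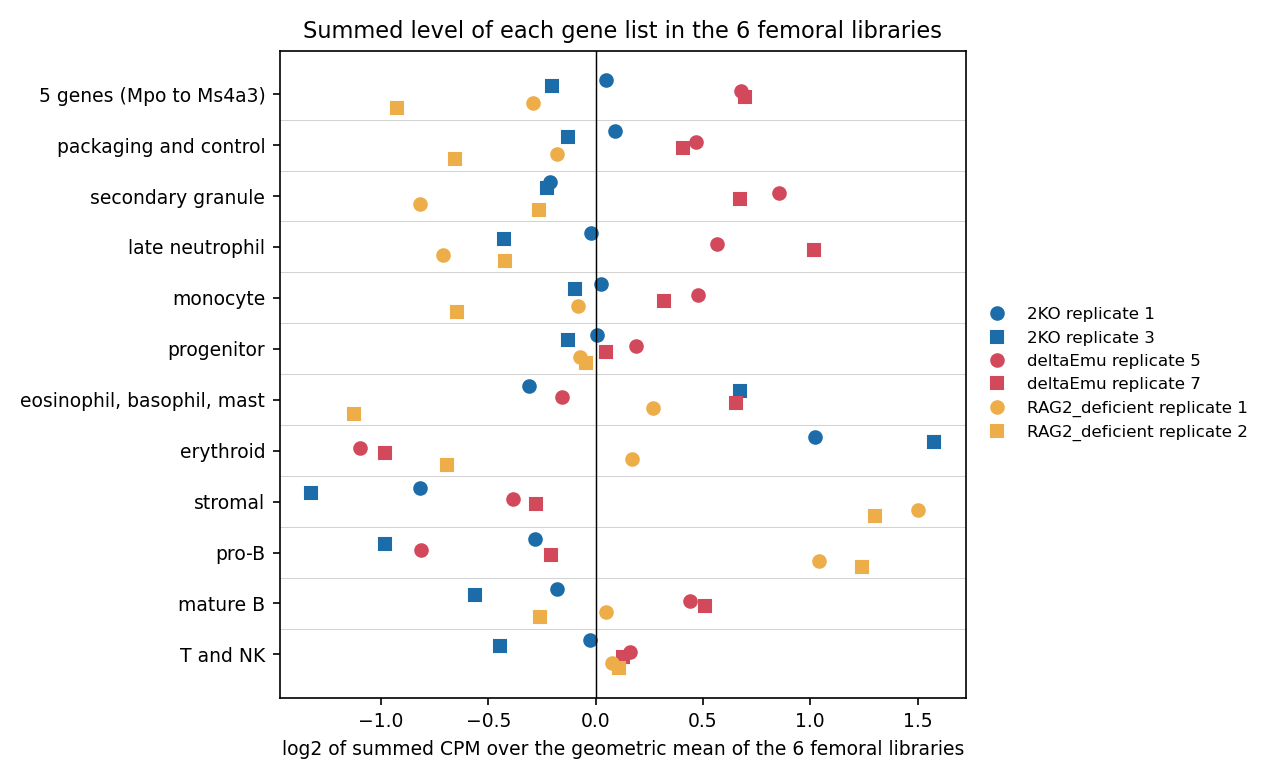
Summed level of each gene list in the 6 femoral libraries, as log2 of the sum over the geometric mean of the 6 (0 on the axis), with colour for the group and marker shape for the replicate. The deltaEmu libraries are highest for the 5 genes and for the packaging and control, secondary granule, late neutrophil, monocyte and mature B cell lists. They are also highest, by less, for the progenitor list and the T and NK list. RAG2_deficient is highest for stromal and pro-B genes, and 2KO for red cell genes.

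The 5 genes varied together across the 6 femoral libraries. Pearson's r between pairs of them on log2 CPM was 0.945 (Mpo and Ctsg) to 0.993 (Prtn3 and Ms4a3), and each had an r of 0.969 to 0.986 with the mean of the other four. These are 6 libraries in 3 groups that share depth, makeup and scaling, so the values describe these libraries only. Of 10939 genes with a mean of at least 5 CPM, 691 had an r of 0.9 or more with the mean of the 5. Srgn was the most alike (r 0.998), with 345 and 295 CPM in 2KO, 455 and 487 CPM in deltaEmu and 308 and 224 CPM in RAG2_deficient. Next came Herpud1 (r 0.998) and Cebpd (r 0.997), which encode a protein of endoplasmic reticulum-associated degradation and a C/EBP transcription factor, and then the cytokine gene Tnf (r 0.996). The other six of the leading 10, Slc8b1, 2500002B13Rik, Adat2, Edem2, Cldn15 and Rgl2, had r of 0.991 to 0.995. Among the listed genes, Cst7 had an r of 0.975 and Prss57 0.974, against 0.612 for Ltf, 0.278 for Mmp8 and -0.739 for Serpinb6a.

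Within 100 kb of the 5 genes, 28 other genes were tested, of which 2 were called in deltaEmu against RAG2_deficient and 1 in 2KO against RAG2_deficient (9.81% and 4.31% of all tested genes). Around Elane lay 13 tested genes and around Prtn3 14, largely the same ones, each count including the other gene of the pair. One of them other than the pair was called, Palm, which encodes the membrane protein paralemmin (0.76 in deltaEmu against RAG2_deficient on the log2 scale, adjusted p 0.0274). Lppr3, on the opposite strand, overlaps the first listed exon of Prtn3 and had femoral levels of 22.1 to 50.5 CPM and at most 0.0414 CPM in the spleen. Reads of the overlap cannot be assigned to one of the genes without the strand setting, which is not given in the sources used here. The complement factor D gene Cfd, 2637 bases from Elane, had 0.099 to 1.55 CPM.

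Near Mpo, 8 genes were tested and Bzrap1 was called, at 0.77 in deltaEmu against RAG2_deficient (adjusted p 0.0178) and 0.75 in 2KO against RAG2_deficient (0.0344). Epx, the eosinophil peroxidase gene 59587 bases from Mpo, had 196 to 834 CPM and values of 0.20, 0.50 and 0.30 in the 3 femoral comparisons (2KO against deltaEmu, 2KO against RAG2_deficient and deltaEmu against RAG2_deficient, adjusted p 0.737 to 0.925). The antisense entry Gm11505, which overlaps Mpo, stayed at 0.0516 to 0.534 CPM. Beside Ctsg, the basophil protease gene Mcpt8 had 68.7 to 135 CPM, and beside Ms4a3 the mast cell and basophil receptor gene Ms4a2 had 32.7 to 47.3 CPM. None of the tested neighbours of Ctsg (2 genes) or Ms4a3 (5 genes) was called in a femoral comparison.

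**Figure D5:**
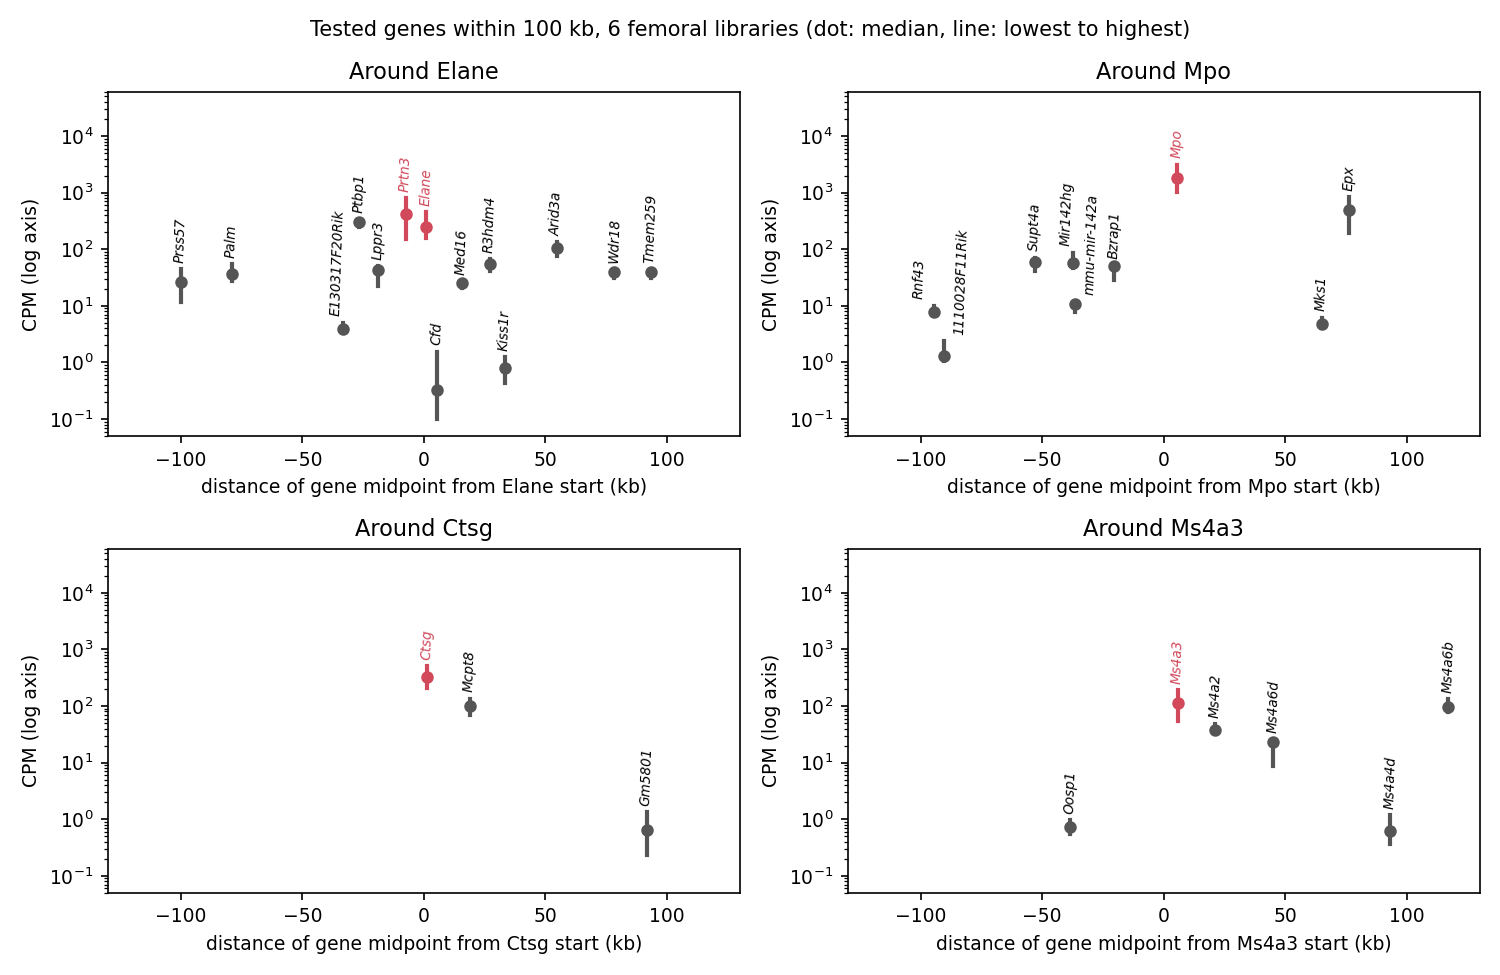
Level (CPM, log axis) of the tested genes within 100 kb of Elane and Prtn3, Mpo, Ctsg and Ms4a3 against the distance of each gene's midpoint from the start of the gene named in the panel, in the direction of its transcription. Dots are medians and lines run from the lowest to the highest of the 6 femoral libraries, with the 5 genes in red; Cfd (0.099 to 1.55 CPM) lies beside Elane.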

How the data were processed

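The authors deposited raw read counts per gene, with the summed exon length of each entry. Per the submitters' processing notes, STAR 2.4.0a and featureCounts from Subread 1.4.6-p1 were used on mm10/GRCm38; no source used here gives the annotation release, the strand setting or the treatment of multiply mapped reads. Per the labels' protocols, libraries were stranded total RNA. The 100 control sequence entries (0 to 17 counts per library) stayed out of totals and tests. From the deposited counts, CPM (TMM-scaled), RPKM and tests were computed here in R 4.3.3 with edgeR 4.0.16: filterByExpr (minimum count 10), TMM, quasi-likelihood F test, Benjamini-Hochberg adjustment over all genes tested, and a call at an adjusted p under 0.05. Every adjusted p is from this test unless DESeq2 1.42.0 is named. The 6 femoral libraries formed 1 fit, the 4 spleen libraries another, and all 10 the last. The steps were tested on simulated data. Correlations used log2(CPM + 0.5).

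The 5 genes and all lists were chosen with earlier results of these data known. Named from each list were up to 3 members called in a femoral comparison, or else the 2 with the smallest adjusted p; added were the 10 genes most alike and tested neighbours within 100 kb. Not every such gene is printed. Srgn, Ctsc, Cst7, Cebpe, Spi1, Runx1, Myb, Bpi, Ltf, Lcn2, Mmp8, Chil3, Cd74 and Cd79b among list members, and Gm11505 among neighbours, were named after their values were seen. RAG2_deficient replicates follow the titles (1 and 2); their descriptions say 2 and 3. Spleen pools 4_et_7 and 6_et_8 (replicates 4 and 6) occur in both conditions, which pairs them by name, but the deviations of same-named pools correlated at -0.465 (13913 genes). No libraries of a group agreed within sampling noise (chi-square per degree of freedom of at least 32.1).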

Additional observations from a re-analysis of the deposited data

How the results depend on the processing

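Of 255 alternative values of the 5 genes, 216 kept their direction and side of the threshold, 29 newly passed it, 8 no longer passed and 2 reversed. The 255 include those of femoral against spleen libraries, where all calls held, so a smaller share was kept among the femoral comparisons alone. The 8 that no longer passed were all of Mpo or Elane in deltaEmu against RAG2_deficient. In 2KO against deltaEmu, DESeq2 called Mpo (-0.74) and Elane (-0.84), no filter on low counts called Elane (-0.84) and Prtn3 (-0.83), and a fit of only the groups compared called Elane (-0.84), Prtn3 (-0.83) and Ctsg (-0.75). The genes called, 612, became 949, 1537 and 1580 in the same order and 388 without immunoglobulin, mitochondrial and globin genes. In 2KO against RAG2_deficient, 713 became 1242, 1971 and 213. In deltaEmu against RAG2_deficient, Prtn3, Ctsg and Ms4a3 were called with DESeq2 (1.49, 0.90, 1.16), library totals alone (1.53, 0.92, 1.18) and no filter (1.49, 0.91, 1.16, with 3308 genes called), and the fit of the groups compared lost Mpo (1.30) and Elane (1.18). Leaving out each library in turn gave, in 2KO against deltaEmu, -0.96 to -0.72 for Elane, -1.07 to -0.63 for Prtn3 and -0.91 to -0.60 for Ctsg, with 119 to 1587 genes called. In 2KO against RAG2_deficient it gave 0.33 to 0.85 for Mpo, 0.090 to 0.65 for Elane, 0.13 to 1.46 for Prtn3, -0.13 to 0.49 for Ctsg (-0.01 without 2KO replicate 1) and 0.12 to 0.99 for Ms4a3, with 153 to 3222 genes called. In deltaEmu against RAG2_deficient it gave 1.06 to 1.59 for Mpo, 0.93 to 1.49 for Elane, 0.97 to 2.29 for Prtn3, 0.62 to 1.24 for Ctsg and 0.78 to 1.65 for Ms4a3, with 259 to 5401 genes called. The cause of these changes was not tested. Where an arm kept 1 library, that library was assumed to vary like the other groups. For SAHA the numbers were 145 with no filter, 0 to 2670 with each library left out, and 0 with the replicate block. With the pool numbers crossed, an alternative chosen after seeing the data, the replicate block also called 0.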
